A study of Homo sapiens with 2 samples.

Results

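DNA damage repair genes were followed in A549, a human cell line long established from a lung adenocarcinoma, with a set of 31 genes chosen by name. All 31 were found by symbol among the 36601 genes of the files. They comprise 7 genes of homologous recombination, 5 of the Fanconi anaemia pathway, 6 of end joining, 4 damage kinases, 6 that sense breaks or bind single-stranded or nicked DNA, and 3 of resection, helicase and mismatch repair work. Single-cell RNA was counted in 2 libraries, 1 per group. The control group was grown in ordinary 2D culture, and the squashed group had been confined with micropillars of polydimethylsiloxane, a silicone. Cells of both groups recovered for 48 h and were then sorted live for having lost a chromosome reporter, a state of about 1 cell in 500, so the control cells carry this loss too. The design text states the aim of measuring which transcripts differ in such rare cells after confinement, and which chromosome holds the reporter is not stated there.

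Cells repair a double-strand break mainly by homologous recombination, which copies an intact sister DNA and is therefore tied to S and G2 phase, or by end joining, which seals the ends in any phase. The Fanconi anaemia pathway unhooks crosslinks between the DNA strands and hands the break to recombination. The kinases ATM and ATR signal damage through CHEK2 and CHEK1. Many recombination genes are known targets of E2F transcription factors, which switch on genes for DNA replication, and confinement that deforms the nucleus is known as a source of DNA damage.

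Levels are given as CPM (counts scaled to the same library total): unique molecular identifiers (UMIs, 1 per captured RNA molecule) of a gene, summed over a library's cells and divided by the library's total. Ratios are log2 of squashed over control, and every interval in the text is an exact 95% interval that covers counting error only. Each group is a single library, so there is no replicate error and no test, and each ratio compares 2 libraries rather than 2 conditions. The 1906 control and 1930 squashed cells kept held 27482392 and 23328323 UMIs, with a median of 2598 and 1790 genes per cell and 5.77% and 7.10% mitochondrial UMIs. The libraries shared 4 barcodes, of which 2 were kept in both. Of the epithelial markers, KRT8 stood at 796 CPM in control and 1169 CPM in squashed cells and KRT18 at 1691 and 557 CPM, whereas EPCAM had 5 and 0 UMIs. The 8 fibroblast markers summed to 9.32 and 9.26 CPM, and the 8 immune markers to 15.5 and 23.2 CPM, mostly from CD68 at 13.4 and 21.8 CPM, while PTPRC, CD3E and MS4A1, which define blood cells, were at 0 in both. The 6 endothelial markers summed to 44.8 and 10.2 CPM, nearly all from EGFL7, and KDR and CDH5 were at 0.

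The sequence around the start of a gene is shown for 6 members because the genes differ in how they follow the cell cycle, described further on. RefSeq promoters on GRCh38.p14, with 250 bases before and 50 after a start, were listed for 26 of the 31 members. They were searched on both strands for 4 E2F words (TTTCCCGC, TTTGGCGC, TTTGCCGC and TTTCGCGC) and for the cell cycle homology region or CHR (TTTGAA and TTCGAA). No member held words of both motifs, so no matches overlapped. An E2F word was present for 6 of the 26 members (23.1%), against 3.99% of the 27305 genes in the table and 3.31% of its 35116 promoters of this length. Those 6 genes were EXO1, XRCC2, FANCD2, MSH6, FANCA and XRCC6. A CHR word was present for 2 of the 26 (7.69%), ATM and BRIP1, against 19.5% of genes and 16.4% of promoters. The windows run from 100 bases before to 30 bases into the first exon of the annotated main transcript, 5′ to 3′ on the gene's own strand. They lie at chr1:241848104-241848233 (plus strand) for EXO1, chr7:152676112-152676241 (minus) for XRCC2, chr3:10026337-10026466 (plus) for FANCD2, chr2:47783045-47783174 (plus) for MSH6, chr17:43125335-43125464 (minus) for BRCA1 and chr11:108222967-108223096 (plus) for ATM. Capitals mark an E2F word, or its reverse complement where the word is on the other strand.
EXO1: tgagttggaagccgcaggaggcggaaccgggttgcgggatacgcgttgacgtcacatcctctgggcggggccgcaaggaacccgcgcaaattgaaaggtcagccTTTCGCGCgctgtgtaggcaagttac
XRCC2: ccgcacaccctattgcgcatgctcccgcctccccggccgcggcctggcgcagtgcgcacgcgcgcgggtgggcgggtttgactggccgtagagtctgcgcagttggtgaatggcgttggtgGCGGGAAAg
FANCD2: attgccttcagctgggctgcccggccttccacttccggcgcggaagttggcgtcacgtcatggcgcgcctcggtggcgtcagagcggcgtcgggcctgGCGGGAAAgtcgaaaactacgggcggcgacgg
MSH6: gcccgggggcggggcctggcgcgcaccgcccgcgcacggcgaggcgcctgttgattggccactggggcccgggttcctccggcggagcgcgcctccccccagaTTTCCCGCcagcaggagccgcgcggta
BRCA1: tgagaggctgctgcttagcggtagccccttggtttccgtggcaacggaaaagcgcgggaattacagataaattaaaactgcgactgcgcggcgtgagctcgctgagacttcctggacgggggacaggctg
ATM: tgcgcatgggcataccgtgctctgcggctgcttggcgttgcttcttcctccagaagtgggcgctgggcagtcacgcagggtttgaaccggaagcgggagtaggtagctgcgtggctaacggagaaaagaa

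The word began at position 5 after the start in EXO1, 4 in MSH6 and 22 in XRCC2, and at -2 in FANCD2. All 4 of these words lay within 30 bases of a start, but the windows shown end 30 bases after it. The words of FANCA and XRCC6, whose windows are not shown, began at -172 and at position 43. The windows of BRCA1 and ATM hold none of the 4 words, which says only that these letters are not in these windows. A match is a description of the sequence, and no binding was measured.

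Summed over the 31 members, repair transcripts made up 1393 CPM in control and 1303 CPM in squashed cells, a log2 ratio of -0.10 (-0.12 to -0.07). The median ratio over the 31 was -0.09, beside -0.15 over the 6120 genes that averaged at least 10 CPM over both libraries, here called measured. Of the members, 22 were measured and 9 were not, and the median over those 22 was -0.18. Single members ran from -0.47 for PARP1 to 0.47 for BRCA1. The 10th and 90th percentiles of all measured genes were -0.65 and 0.24, and only BRCA1, EXO1 and XRCC3 lay outside them, on the high side. No member was 1.5-fold lower or 1.5-fold higher in the squashed library, where 11.6% of measured genes were lower by that size and 2.88% higher. At 1.2-fold, a smaller size chosen after none had passed the larger one, 9 of the 31 were lower, namely PARP1, RAD51AP1, CHEK2, PRKDC, RAD50, RAD54L, ATM, FANCI and NBN, and 3 were higher, BRCA1, EXO1 and XRCC3. Among all measured genes 34.2% were 1.2-fold lower and 9.20% higher. Of the 22 measured members 8 were lower and 1 higher, shares near the background. The ratio's sign was below 0 for 12 members and above 0 for 4 in each of 9 other ways of choosing, thinning or scaling the cells, and the other 15 changed sign in at least 1 of them. The TMM scaling, which sets the centre of all genes near 0, moved every ratio up by 0.15.

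**Figure D1:**
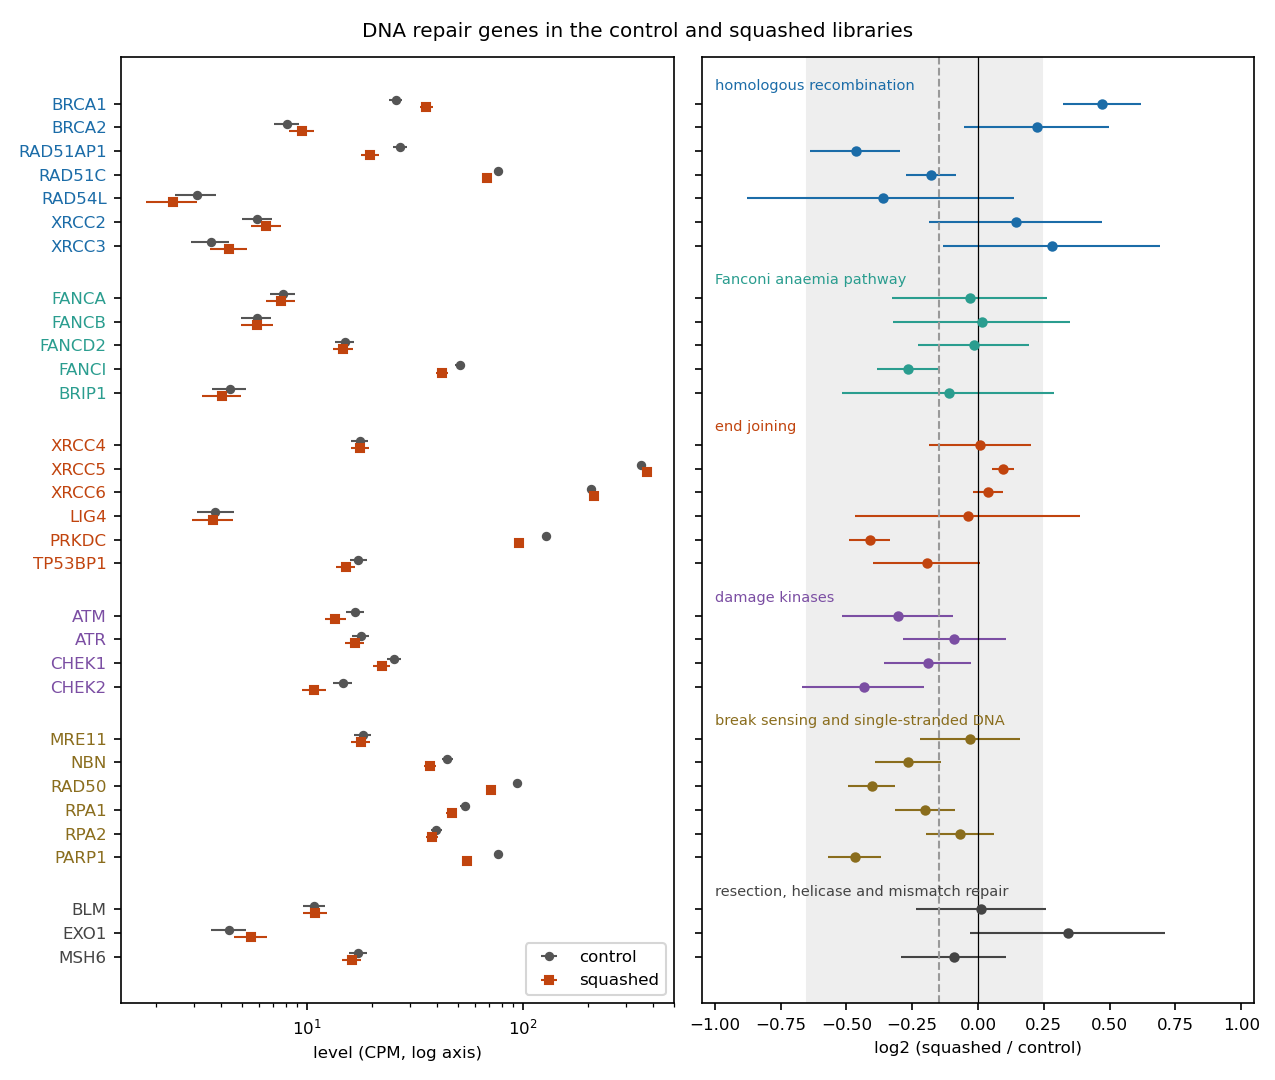
Level of each member in the 2 libraries (left, CPM on a log axis) and its log2 ratio of squashed over control (right), grouped by role. Bars are 95% counting intervals, the dashed line is the median of all measured genes (-0.15) and the grey band their 10th to 90th percentile. BRCA1 at 0.47, EXO1 and XRCC3 lie above the band, and PARP1 at -0.47 is the lowest member.

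Homologous recombination genes had ratios on both sides of 0. BRCA1, part of a ubiquitin ligase that promotes resection and recombination, had the highest ratio of the 31. It stood at 25.8 CPM (23.9 to 27.7) in control and 35.7 CPM (33.3 to 38.2) in squashed cells, a log2 ratio of 0.47 (0.32 to 0.62). These intervals do not overlap, and the ratio stayed between 0.28 and 0.63 over the 9 alternatives. RAD51AP1, which promotes the pairing of DNA strands, was lower in the squashed library, at 27.1 CPM (25.2 to 29.1) in control and 19.6 CPM (17.9 to 21.5) in squashed cells, a ratio of -0.46 (-0.64 to -0.30). RAD51C, which acts in strand exchange, was the most abundant of the 7 in UMIs, with 77.1 CPM in control and 68.1 CPM in squashed cells (-0.18, -0.27 to -0.08). The other 4 were rare, so their ratios were imprecise. BRCA2, a core mediator of recombination, stood at 8.11 and 9.47 CPM in control and squashed cells (0.22, -0.05 to 0.50). XRCC2 and XRCC3, which act in complexes with RAD51C, had ratios of 0.14 (-0.18 to 0.47) and 0.28 (-0.13 to 0.69), and RAD54L, a motor protein of strand exchange, had -0.36 (-0.88 to 0.14). Each of these 4 intervals holds 0. BRCA1 spans positions 43044295 to 43170245 on the minus strand of chromosome 17 in GRCh38. It overlaps NBR2 on the other strand and a further annotated gene on its own strand. Whether the counting used strand is not known here. On either strand, 21 of the 31 members overlap another annotated gene, and on the same strand only BRCA1, ATR, CHEK1 and MRE11 do.

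The Fanconi anaemia genes had ratios from -0.27 to 0.01. FANCI, which with FANCD2 forms the clamp that the pathway ubiquitinates, was at 51.0 CPM (48.3 to 53.7) in control and 42.4 CPM (39.8 to 45.1) in squashed cells (-0.27, -0.38 to -0.15). Its partner FANCD2 was level, at 15.0 and 14.8 CPM (-0.02, -0.23 to 0.19). FANCA and FANCB, subunits of the core ligase complex, had ratios of -0.03 (-0.33 to 0.26) and 0.01 (-0.32 to 0.35). BRIP1, a helicase that binds BRCA1, had 4.40 CPM in control and 4.07 CPM in squashed cells (-0.11, -0.52 to 0.29). A difference of 1.2-fold was not detectable at this depth for FANCA, FANCB or BRIP1, whose intervals reach that size on both sides or on 1. Their ratios also moved with the processing: FANCA was at -1.06 after thinning to 2000 UMIs and at most 0.27 elsewhere, FANCB reached 0.41 and BRIP1 -0.38 with equal weights of the phases.

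In end joining, the 2 Ku subunits differed little between the libraries and their kinase was lower in the squashed one. XRCC5 and XRCC6 encode the Ku ring that grips broken ends. XRCC5 stood at 351 CPM (344 to 358) in control and 375 CPM (367 to 383) in squashed cells (0.10, 0.05 to 0.14), and XRCC6 at 207 and 212 CPM (0.04, -0.02 to 0.09). PRKDC, the DNA-dependent protein kinase that Ku recruits, stood at 128 CPM (124 to 132) in control and 96.2 CPM (92.3 to 100.3) in squashed cells, a ratio of -0.41 (-0.49 to -0.34). Relative to the median of all genes that is -0.26, and Ku's XRCC5 and XRCC6 are then at 0.24 and 0.19. XRCC4 and LIG4, which together ligate the ends, had ratios of 0.01 (-0.19 to 0.20) and -0.04 (-0.47 to 0.39). TP53BP1, which shields ends from resection, was at 17.3 and 15.1 CPM (-0.19, -0.40 to 0.01).

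All 4 damage kinases and all 6 genes of break sensing and single-stranded DNA had ratios below 0, as did 70.2% of all measured genes. Under TMM scaling ATR, MRE11 and RPA2 turned positive, at 0.06, 0.12 and 0.08. The kinase CHEK2 stood at 14.7 CPM (13.3 to 16.2) in control and 10.9 CPM (9.55 to 12.3) in squashed cells (-0.43, -0.67 to -0.20). ATM, which responds to double-strand breaks, had 16.7 and 13.6 CPM (-0.30, -0.52 to -0.10). ATR and CHEK1, which respond to stalled forks, had -0.09 (-0.29 to 0.11) and -0.19 (-0.36 to -0.03). The median of the 4 kinases was -0.25, which is 0.10 below that of all measured genes. Relative to that median the ratio of ATR lay above it, at 0.06.

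PARP1, which marks nicks and breaks with poly(ADP-ribose), had the lowest ratio of the members: 76.5 CPM (73.2 to 79.8) in control against 55.3 CPM (52.3 to 58.4) in squashed cells (-0.47, -0.57 to -0.37). Over the 9 alternatives its ratio ran from -0.77 to -0.32. PARP1 spans positions 226360210 to 226408154 on the minus strand of chromosome 1 and overlaps no annotated gene. The MRE11, RAD50 and NBN proteins form 1 complex that binds and trims broken ends, yet their transcripts differed in ratio. RAD50 had 94.0 CPM (90.4 to 97.7) in control and 71.0 CPM (67.7 to 74.5) in squashed cells (-0.40, -0.49 to -0.32). NBN had 44.8 and 37.3 CPM (-0.27, -0.39 to -0.14), and MRE11 had 18.1 and 17.8 CPM (-0.03, -0.22 to 0.16). The interval of MRE11 does not overlap that of RAD50. RPA1 and RPA2, subunits of the complex that coats single-stranded DNA, had ratios of -0.20 (-0.31 to -0.09) and -0.07 (-0.20 to 0.06). EXO1, an exonuclease of resection and mismatch repair, had 4.37 CPM (3.62 to 5.22) in control and 5.53 CPM (4.62 to 6.57) in squashed cells (0.34, -0.03 to 0.71). BLM, a helicase that dissolves recombination intermediates, and MSH6, which recognises mismatches, had ratios of 0.01 (-0.24 to 0.26) and -0.09 (-0.29 to 0.10).

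Measured genes had a median ratio of -0.15 at 800 to 2000 nt of transcript length, -0.15 at 2000 to 4000 nt and -0.17 above that, where 18 of the 31 members lie (median -0.10). Only the class up to 800 nt, which holds no member, stood apart at 0.02.

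The larger contrast lay between cell cycle phases within each library. Each cell was assigned to G1, S or G2/M from 30 G1/S and 54 G2/M genes that include no repair gene, after thinning to 2000 UMIs, the depth that 1825 control and 1782 squashed cells reached. In control 617 cells were called G1, 55 S and 1153 G2/M, and in squashed 736, 70 and 976. G1 thus held 33.8% (31.6 to 36.0) of the control and 41.3% (39.0 to 43.6) of the squashed cells. This order depended on the cells: the shares were 36.1% and 37.5% at 10000 UMIs, and 29.3% and 27.1% with at least 5000 UMIs and 2000 genes. In control cells, summed repair transcripts stood at 1060 CPM (1040 to 1080) in G1, 1865 CPM (1789 to 1945) in S and 1573 CPM (1553 to 1592) in G2/M. In squashed cells the same sums were 894 CPM (875 to 914), 1763 CPM (1687 to 1841) and 1548 CPM (1527 to 1570). S and G2/M cells thus carried a higher share of repair transcripts than G1 cells in both libraries, beyond the counting intervals.

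By gene, 21 of the 31 members were at least 1.5-fold higher in S than in G1 in both libraries, and 13 of the 22 measured members, against 11.7% of 6044 measured genes outside the phase lists. For G2/M over G1 the counts were 19 of 31 and 11 of 22, against 22.3%. No member was 1.5-fold lower in G2/M than in G1 in both libraries, against 5.97% of genes. In both comparisons the members' share was above the background. All 7 recombination genes and all 5 Fanconi anaemia genes were higher in S and in G2/M, though only 3 of the 7 and 2 of the 5 were measured. XRCC3 had 4 UMIs in control S cells, and its control S over G1 ratio of 1.42 had an interval that holds 0 (-0.76 to 2.97). End joining differed: 1 of its 6 genes was higher in S (PRKDC) and 2 in G2/M (XRCC4 and XRCC6). Which of its genes passed in S depended on the call. With phases called at 10000 UMIs, or without cells marked as doublets, XRCC5 passed too. With phases called from scaled scores XRCC4 passed and PRKDC did not. With cells of at least 5000 UMIs and 2000 genes PRKDC did not pass either, with a control log2 ratio of 0.52. Of the 4 kinases only CHEK1 was higher in S or G2/M by that size in both libraries. Of the 6 genes of break sensing, 4 were higher in S (MRE11, NBN, RPA2 and PARP1) and 2 in G2/M (MRE11 and RPA2). BLM, EXO1 and MSH6 were all higher in S, and BLM and EXO1 also in G2/M. Under the 4 other ways of calling the phases or choosing cells, the counts ran from 18 to 23 for S and from 18 to 20 for G2/M.

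**Figure D2:**
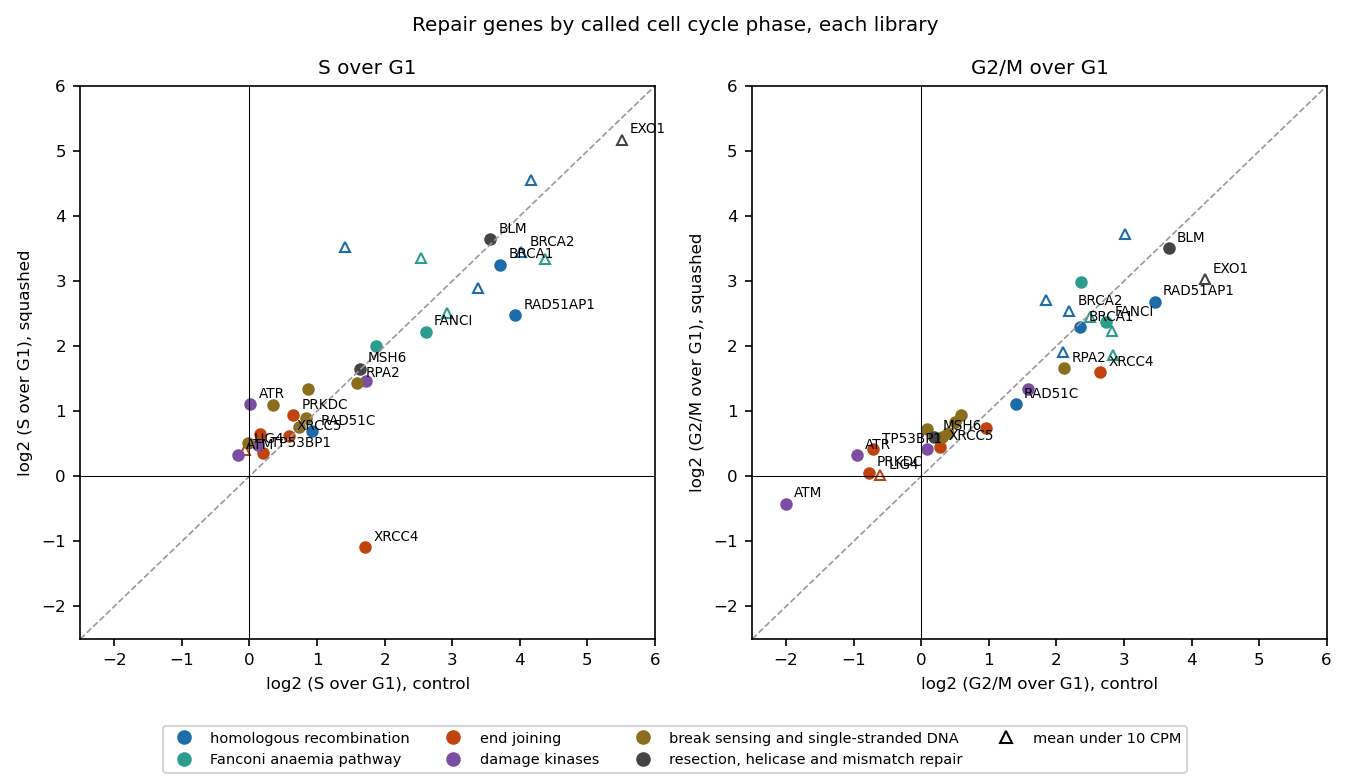
Log2 ratio of each member between phases in the control library (x axis) and the squashed library (y axis), for S over G1 (left) and G2/M over G1 (right). Filled circles are measured members and open triangles those that averaged under 10 CPM. Recombination and Fanconi anaemia genes other than RAD51C lie to the upper right in both panels. For S over G1 RAD51C is at 0.92 in control and 0.70 in squashed. For G2/M over G1 ATM is at -2.01 in control and -0.42 in squashed.

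BRCA1 shows the pattern of the recombination genes. Its level in control was 6.54 CPM in G1, 85.8 in S and 33.7 in G2/M, and in squashed cells 9.89, 94.3 and 48.8 CPM. The S over G1 log2 ratio was 3.71 (3.26 to 4.18) in control and 3.25 (2.84 to 3.68) in squashed, so both libraries put BRCA1 highest in S. BRCA2 followed the same order, with 2.15, 35.3 and 9.98 CPM in control and 2.22, 24.5 and 13.2 CPM in squashed cells. RAD51AP1 had its highest level in S in control (3.61, 55.5 and 40.1 CPM in G1, S and G2/M) and in G2/M in squashed cells (4.55, 25.3 and 29.6 CPM). The squashed S value of RAD51AP1 rests on 29 UMIs, and the difference in peak phase was lost under other calls: at 10000 UMIs S was highest in both libraries, and with scaled scores G2/M was. RAD51C was highest in G2/M in both, at 102 CPM in control and 87.3 CPM in squashed cells, against 38.8 and 40.6 CPM in G1. The G2/M over G1 log2 ratio of RAD51C, 1.40 in control and 1.10 in squashed cells, was the smallest of the 7 in both libraries.

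EXO1 had the widest S over G1 ratio of the members under these calls, from few G1 molecules. It had 3 UMIs in control G1 cells and 18 in S (0.29 and 15.1 CPM), a ratio of 5.51 (3.92 to 8.10), and 7 and 34 UMIs in squashed cells (0.78 and 29.7 CPM), a ratio of 5.18 (4.06 to 6.67). With scaled scores the ratios of EXO1 were 2.94 and 3.95, and BRIP1, at 3.55, was the highest in control. BLM stood at 1.27, 15.1 and 16.6 CPM in G1, S and G2/M of control and 1.44, 18.3 and 17.0 CPM in squashed cells. MSH6 peaked in S alone, at 14.7, 45.4 and 16.8 CPM in control and 11.4, 35.8 and 17.5 CPM in squashed cells. The 6 members whose promoter holds an E2F word differed in their S over G1 ratio in control. It was 5.51 for EXO1, 3.39 for XRCC2, 2.92 for FANCA, 1.87 for FANCD2, 1.63 for MSH6 and 0.16 for XRCC6. Of these, EXO1, XRCC2 and FANCA averaged under 10 CPM. BRCA1, with no such word in its window, had 3.71. FANCI was near its high level in both later phases, at 11.3, 69.0 and 75.5 CPM in control and 12.0, 55.9 and 62.4 CPM in squashed cells. RPA2 stood at 13.2 CPM in G1 and 57.0 CPM in G2/M of control, and at 16.6 and 52.5 CPM in squashed cells.

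XRCC4 had the widest gap between the libraries in its S over G1 ratio, 1.71 (0.75 to 2.54) in control and -1.09 (-3.17 to 0.16) in squashed cells. In control XRCC4 stood at 4.20, 13.5 and 26.6 CPM in G1, S and G2/M, and in squashed cells at 8.33, 3.49 and 25.4 CPM. The S values rest on 16 and 4 UMIs. With phases called from scaled scores, which put 363 and 403 cells in S, XRCC4 was at 16.9 and 16.3 CPM there. Its S over G1 ratio was then 1.79 in control and 0.90 in squashed cells, a smaller gap. Under that call the libraries differed in G1, at 4.87 and 8.71 CPM, rather than in S.

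**Figure D3:**
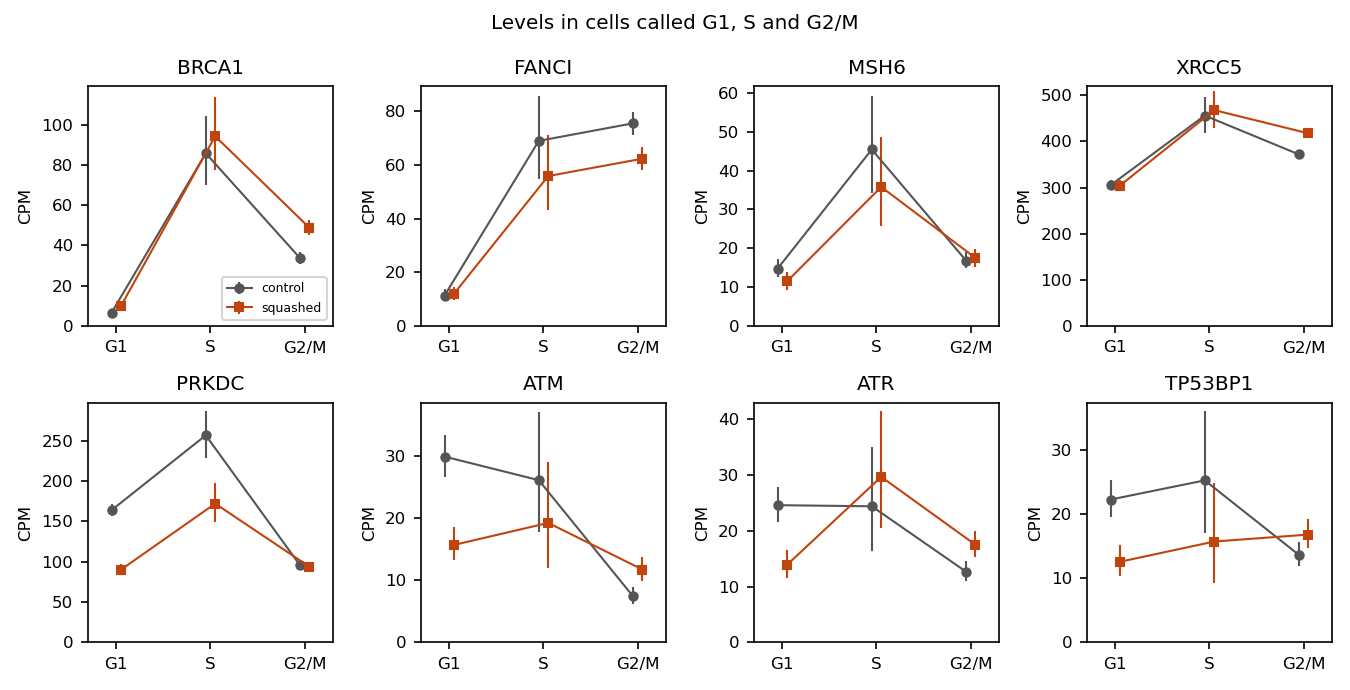
Level (CPM, axes from 0) of 8 members in cells called G1, S and G2/M, in control (grey circles) and squashed (orange squares), 1 library each with 95% counting intervals. BRCA1 and MSH6 peak in S, FANCI stays high in G2/M, and ATM, ATR, TP53BP1 and PRKDC are higher in control than in squashed cells in G1 but not in G2/M.

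ATM, ATR, TP53BP1 and PRKDC differed between the libraries within G1. ATM stood at 29.9 CPM in control and 15.7 CPM in squashed G1 cells, a ratio of -0.93 (-1.23 to -0.64), and at 7.41 and 11.7 CPM in G2/M cells, a ratio of 0.66 (0.30 to 1.02). ATR stood at 24.6 and 13.9 CPM in G1 (-0.82, -1.15 to -0.51) and at 12.7 and 17.5 CPM in G2/M (0.46, 0.18 to 0.74). TP53BP1 stood at 22.3 and 12.6 CPM in G1 (-0.82, -1.16 to -0.49) and at 13.6 and 16.8 CPM in G2/M (0.30, 0.02 to 0.58). For these 3 genes the squashed library was lower in G1 and higher in G2/M, so the whole-library ratios of -0.30, -0.09 and -0.19 combine opposite differences. PRKDC was lower in G1 cells, at 164 and 90.1 CPM (-0.86, -0.98 to -0.74), and level in G2/M cells, at 95.6 and 93.7 CPM (-0.03, -0.14 to 0.08). The sign of the ratio was the same for ATM, ATR and TP53BP1 in both phases under the 4 alternatives, with G2/M ratios from 0.63 to 0.82 for ATM, 0.40 to 0.56 for ATR and 0.25 to 0.41 for TP53BP1. The G2/M interval of TP53BP1 held 0 in 2 of the 4, at -0.02 to 0.58 with phases called at 10000 UMIs and -0.09 to 0.59 with scaled scores. G1 ratios ran from -1.04 to -0.66 for ATM, from -0.82 to -0.48 for ATR and from -0.83 to -0.47 for TP53BP1. PRKDC ran from -0.87 to -0.65 in G1.

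Along the cycle, ATM had a G2/M over G1 log2 ratio of -2.01 (-2.33 to -1.70) in control and -0.42 (-0.76 to -0.08) in squashed cells. ATR had a G2/M over G1 ratio of -0.95 (-1.23 to -0.68) in control and 0.33 (0.01 to 0.66) in squashed cells. TP53BP1 had -0.71 (-0.98 to -0.43) and 0.42 (0.09 to 0.76), and PRKDC -0.78 (-0.88 to -0.68) and 0.06 (-0.07 to 0.19). In control these 4 genes were thus lower in G2/M than in G1, whereas in squashed cells this held for ATM but depended on the cells for the others. With cells of at least 5000 UMIs and 2000 genes, the squashed ratio was -0.18 (-0.32 to -0.04) for PRKDC, -0.09 for ATR and -0.06 for TP53BP1, so the squashed sign turned under that filter while the control sign did not. The squashed ratio of ATM was 0.03 with phases called from scaled scores.

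Other members were lower in squashed G1 cells as well. NBN had a G1 ratio of -0.68 (-0.91 to -0.45), CHEK2 -0.65 (-1.06 to -0.25), PARP1 -0.65 (-0.84 to -0.46) and RAD50 -0.60 (-0.77 to -0.43). In all, 8 of the 22 measured members were at least 1.5-fold lower in squashed than in control G1 cells, against 29.5% of genes, and 2 were higher, BRCA1 at 0.59 (0.12 to 1.08) and XRCC4 at 0.98 (0.43 to 1.57), against 3.94%. In G2/M cells no measured member was 1.5-fold lower, against 8.39%, and only ATM was higher, against 5.24%. The median over measured members was -0.32 in G1 and -0.03 in G2/M, beside -0.31 and -0.04 for all genes, so the lower G1 values of the members were of the size seen across the transcriptome. The ratio was lower in G1 than in G2/M for 13 of the 22 measured members and for 4195 of 6044 measured genes outside the phase lists. BRCA1 was higher in the squashed library within both phases, with 0.53 (0.36 to 0.70) in G2/M.

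Other properties of the cells called G1 differed as well. In control they had a median of 15159 UMIs and 2989 genes, in squashed 9127.5 UMIs and 1418.5 genes, and the mitochondrial share was 11.1% and 8.71%. NEAT1, a nuclear long noncoding RNA, was at 3773 and 1722 CPM in G1 and at 222 and 379 CPM in G2/M, the same order as ATM. MALAT1, another nuclear RNA, was at 19139 and 15386 CPM in G1 and 3606 and 6820.4 CPM in G2/M. The part of depth, gene number and nuclear RNA in the members' G1 ratios was not tested.

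**Figure D4:**
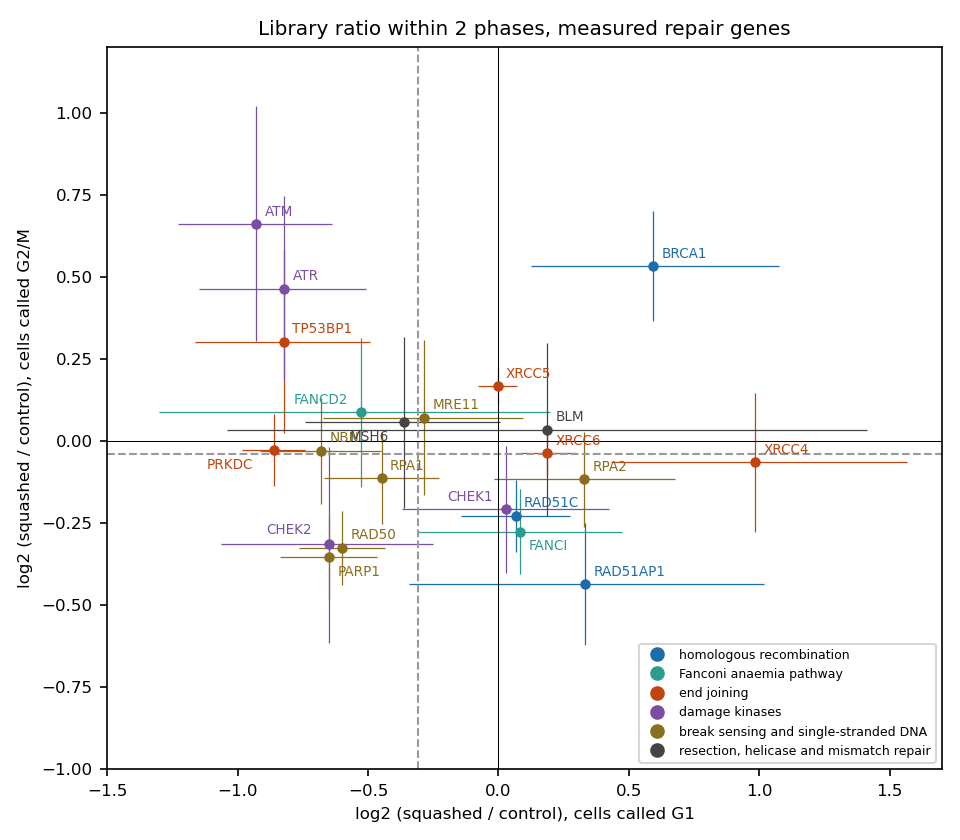
Log2 ratio of squashed over control for the 22 measured members in cells called G1 (x axis) and G2/M (y axis), with 95% counting intervals, coloured by role. Dashed lines are the medians of all genes (-0.31 and -0.04). ATM, ATR and TP53BP1 lie at the upper left, BRCA1 at the upper right, and PARP1, RAD50 and CHEK2 at the lower left.

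The wider repair pathways gave the setting for these genes. Of 123 other repair genes, 72 were measured, with a median ratio of -0.15, the same as over all genes. Of the 72, 7 were 1.5-fold lower and 3 higher in the squashed library, beside 11.6% and 2.88% of all measured genes. PAXX, a factor that works with Ku in end joining, stood at 40.1 CPM in control and 9.17 CPM in squashed cells (-2.13, -2.35 to -1.92). MPG, a glycosylase of base excision repair, was at 23.6 and 8.75 CPM (-1.43, -1.67 to -1.20), and ZSWIM7, a recombination factor, at 64.8 and 27.0 CPM (-1.26, -1.40 to -1.13). CETN2, a centrin that is also part of a nucleotide excision repair complex, was higher, at 62.9 and 128 CPM (1.03, 0.94 to 1.11). The histone H2AX, which ATM marks at breaks, was at 16.2 and 9.73 CPM (-0.73, -0.97 to -0.50), and UBE2B, an enzyme of damage bypass, at 42.3 and 26.2 CPM (-0.69, -0.83 to -0.55). These 6 were chosen as the largest absolute ratios among the 72. With equal weights of the phases H2AX was at -0.37 and UBE2B at -0.58, under 1.5-fold, and TMM scaling put UBE2B at -0.54 and H2AX at -0.58.

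By phase, 30 of the 72 other repair genes were 1.5-fold higher in S than in G1 in both libraries and 36 in G2/M. Of all measured genes outside the phase lists 11.7% and 22.3% were. Damage signalling genes had 6 of 9 in S and 9 of 9 in G2/M, other recombination genes 5 and 3 of 8, other Fanconi anaemia genes 5 of 7 in each, base excision repair 4 and 6 of 12, and nucleotide excision repair 1 and 4 of 14. The E2F words were in the promoters of 14 of 104 other repair genes (13.5%).

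Targets of p53, a factor that ATM and CHEK2 activate, had ratios on both sides of 0. Of 24 genes 15 were measured, with a median of -0.06. CDKN1A, the inhibitor of cyclin-dependent kinases, was at 62.4 CPM in control and 95.5 CPM in squashed cells (0.61, 0.52 to 0.71), the 1 measured target that was 1.5-fold higher. With equal weights of the phases it was at 0.49, below that size. FDXR, a mitochondrial reductase, was at 74.7 and 40.0 CPM (-0.90, -1.02 to -0.79), the 1 that was 1.5-fold lower. Of all measured genes 2.88% were higher by that size and 11.6% lower. The death receptor FAS (0.44), the oxidoreductase TP53I3 (0.38), the stress gene GADD45B (-0.39) and the apoptosis effector BAX (-0.34) followed in size. The 30 G1/S genes used for the phase calls, which share the S timing of the recombination genes, had 23 measured members with a median of 0.06, and none was 1.5-fold lower or higher.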

How the data were processed

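The labels give 1 control and 1 squashed library of A549 cells, made with a 10x Genomics Chromium 3.1 kit and sequenced on a NovaSeq 6000, per the labels' protocols. The authors deposited counts of UMIs per gene and barcode, which are whole and not normalized, per the file headers. Counting used Cell Ranger and the GRCh38 reference of 10x Genomics. Its version is 4.0.0 in the file headers but 5.0.1 in the labels' design text. The submitters' processing notes name R 4.3.2. How barcodes were called cells is not stated there.

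Barcodes were kept from 1000 UMIs and 500 genes upward, with mitochondrial UMIs of 20% or less, 1906 of 2574 in control and 1930 of 3132 in squashed. Scrublet marked 16 and 15 cells as doublets, which stayed in, except in 1 alternative. UMIs were summed per library, and log2 ratios used a prior of 0.5 count. Intervals are exact Clopper-Pearson at 95%. Measured genes averaged at least 10 CPM. A single library per group allows no test, so the text has no p-values. Phases were called with scanpy 1.11.5 under Python 3.11.15, with pandas 2.3.3, scipy 1.17.1, numpy 2.4.6 and matplotlib 3.10.9. TMM factors came from edgeR 4.0.16 in R 4.3.3. Gene positions and lengths came from GENCODE 44 on GRCh38, matched by identifier for 36366 of 36601 genes, and need not match the authors' annotation. H2AX was matched by identifier to an older symbol.

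Members and gene lists were chosen with earlier results of these data known, and the 1.2-fold size and the values within phases were added after the data had been seen. All 31 members could be named, as well as the 6 measured other repair genes and the 6 measured p53 targets with the largest absolute ratio. Alternatives changed the cell filter, the thinning depth, the scaling, the weight of cells or phases, the expression minimum and the phase calls. The ratios and their intervals were tested on simulated library totals, and the other steps were not tested on simulated data.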

Additional observations from a re-analysis of the deposited data

Results flagged for a closer look

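For 3 members the difference between the libraries had opposite signs in cells called G1 and cells called G2/M, with counting intervals on opposite sides of 0. ATM had a log2 ratio of squashed over control of -0.93 in G1 and 0.66 in G2/M. ATR had -0.82 in G1 and 0.46 in G2/M, and TP53BP1 had -0.82 and 0.30. The G2/M interval of TP53BP1 held 0 with phases called at 10000 UMIs and with scaled scores. The same values can be read along the cycle: ATR had a G2/M over G1 ratio of -0.95 in control and 0.33 in squashed cells, and TP53BP1 had -0.71 and 0.42, although with cells of at least 5000 UMIs and 2000 genes the squashed values were -0.09 and -0.06. The difference between these effects was not tested, since each group is 1 library. A lower ratio in G1 than in G2/M was common: 4195 of 6044 measured genes outside the phase lists had it. Of the 22 measured members 13 did. How many of all genes had opposite signs was not counted.

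Repair transcripts were also counted in barcodes with under 500 genes, which entered only the alternative that used every deposited barcode. The 31 members summed to 593 CPM (524 to 668) in 384 such control barcodes and 730 CPM (672 to 791) in 673 squashed ones, below the 1393 and 1303 CPM of the kept cells. The source of these transcripts was not tested.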

How the results depend on the processing

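With cells of at least 5000 UMIs and 2000 genes, the median ratio over the 31 members was 0.08, their sum -0.01 and the median of other repair genes 0.00. Under that filter 1 member was 1.5-fold higher, 5 were 1.2-fold lower, and 4 were 1.5-fold lower in G1 cells. After thinning to 2000 UMIs, 4 members were 1.5-fold lower and 3 higher, the sum was -0.16, and other repair genes had a median of -0.31 with 13 lower. At 10000 UMIs 1 member was 1.5-fold higher and 5 were 1.2-fold higher, the sum was -0.06 and 1 other repair gene was higher. With TMM scaling the member median was 0.06, the sum 0.05, 1 member was 1.5-fold higher, 3 were 1.2-fold lower and 5 higher, and other repair genes had a median of 0.00 with 3 lower. That scaling moved the median of all genes from -0.15 to 0.00 by construction. With the mean over cells 1 member was 1.5-fold lower, the sum was -0.15 and the median of other repair genes -0.22. With equal weights of the phases 1 member was 1.5-fold lower and 2 higher. With a minimum of 20 CPM 1 member was 1.2-fold higher and 3 other repair genes were lower, and with 1 UMI in both libraries as the minimum 21 were lower, since more or fewer genes were counted. With phases called at 10000 UMIs 4 measured members were lower in G1 and 2 higher in G2/M. For the changes other than those of TMM scaling and of the minimum, the cause was not tested. The shares of all measured genes past 1.5-fold or 1.2-fold under these settings are not given here. The counts between libraries in this paragraph therefore have no background beside them and say nothing particular about repair genes. Counts of members higher in S or G2/M than in G1 stayed within 18 to 23 under every phase alternative run. Of 6044 measured genes outside the phase lists, 413 to 809 were higher in S in both libraries and 872 to 1517 in G2/M.

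No paired analysis was possible because the labels give 1 library per group and no replicate numbers. Members with few UMIs, such as RAD54L, XRCC3, LIG4 and EXO1, have intervals too wide to show a 1.2-fold difference, and the 55 and 70 cells called S limit every S value. Intervals cover counting error only, and no difference between libraries can be told apart from a difference between cultures, sorts or runs.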
